A study of Mus musculus with 4 samples.

Results

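The T cells of ear skin described here are the barcodes that carried CD3 transcripts and no transcript of Trdc, the constant segment of the delta chain of the gamma-delta T cell receptor. A barcode of a skin library was a member when it had 200 or more detected genes, at most 10% of its UMIs (unique molecular identifiers, 1 per captured transcript) from mitochondrial genes, 2 or more UMIs of Cd3d, Cd3e and Cd3g together, no Trdc UMI, and under 1% of its UMIs from Krt5 and Krt14, the keratins of the basal epidermis. This rule gave 113 members among 9615 skin barcodes that met the gene and mitochondrial limits, and among 23191 barcodes of all libraries. Of the members, 22 were in the library of control mice (IgG) and 91 in that of mice with antibodies to collagen VII (EBA). The Cd3, Trdc and keratin levels chose the members and are given as a description alone.

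Most T cells of the body carry an alpha-beta receptor and either CD4 or CD8, whereas mouse epidermis holds a dense network of gamma-delta T cells, so that dermal CD4 T cells and regulatory T cells make up much of the alpha-beta population of resting mouse skin. Regulatory T cells depend on the transcription factor Foxp3, carry the high-affinity interleukin-2 receptor chain Il2ra and the inhibitory receptor Ctla4, and restrain other immune cells. Icos is a costimulatory receptor of activated and tissue T cells. In epidermolysis bullosa acquisita, antibodies to collagen VII, the anchoring fibril protein below the epidermis, bring neutrophils into the skin and lead to blisters.

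All mice were C57BL/6J animals aged 6 to 8 weeks. Injections of 250 µg rabbit IgG were given over 2 weeks, 3 in each week, with IgG either specific for the vWFA2 domain of collagen VII (EBA) or control rabbit IgG (IgG). Both groups thus received rabbit IgG, and the EBA skin came from punch biopsies of lesions on the ear. Skin was dissociated with enzymes, whereas the red cells of blood were lysed, so tissue and preparation cannot be told apart. Cells of 3 mice were pooled in each library, with 1 library for each of IgG skin, EBA skin, IgG blood and EBA blood. With 1 library in a group no difference has a replicate check and no test was made. Every value compares these libraries, and intervals cover counting error only.

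The libraries held 22705634 to 90829463 UMIs, and 3419 to 5334 barcodes met the gene and mitochondrial limits in each. The rest of the 2 skin libraries differed in makeup. Keratin-rich barcodes were 25.8% of IgG skin and 6.35% of EBA skin, and barcodes with 1% or more of their UMIs from the neutrophil genes S100a8 and S100a9 were 0.0562% (3 barcodes) and 23.4% (1003 barcodes). The skin libraries had 15 barcode sequences in common, none of them a member.

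Members were shallow barcodes with a few very deep ones among them. Their median depth was 3583.5 UMIs in IgG (1893 to 86362) and 5238 in EBA (848 to 144751), with a median of 4 and 6 Cd3 UMIs. In IgG skin 1 barcode of 86362 UMIs held 52.4% of all member UMIs, although it had 3 Cd3 UMIs beside 988 UMIs of keratinocyte markers. In EBA skin the 6 barcodes over 20000 UMIs held 36.6% of member UMIs. One of these, with 30192 UMIs, held 3 Cd3 UMIs beside 1884 UMIs of fibroblast markers. Sums over members were therefore also made over the 21 IgG and 85 EBA barcodes with at most 20000 UMIs, a limit chosen after the data were seen. These sums held 78496 and 507075 UMIs. Their barcodes still differed in depth, at 1893 to 5504 UMIs in IgG (median 3574) and 848 to 17684 in EBA (median 5013).

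**Figure D1:**
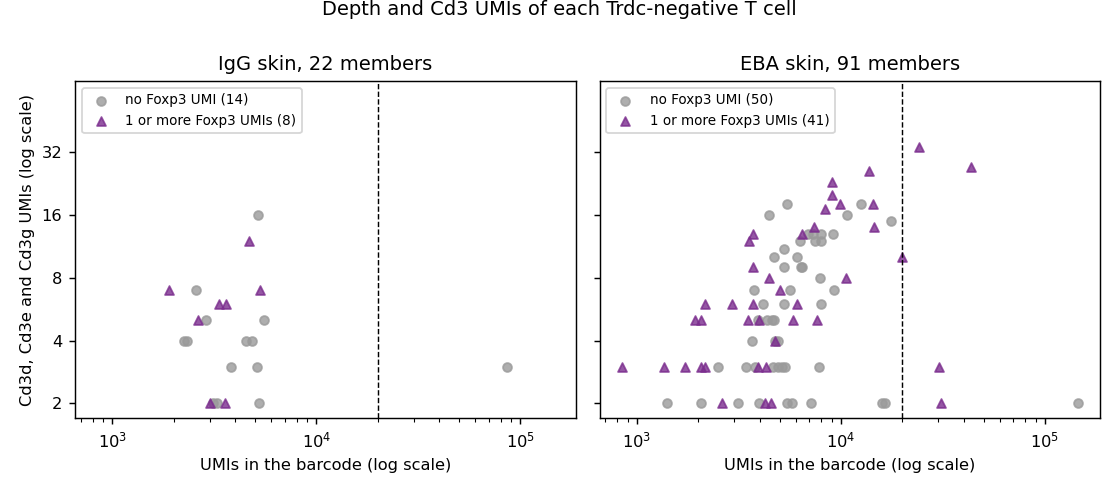
UMIs of each member (horizontal, log scale) against its UMIs of Cd3d, Cd3e and Cd3g (vertical, log scale) in IgG skin (22 barcodes) and EBA skin (91 barcodes). Triangles are barcodes with a Foxp3 UMI and the dashed line is at 20000 UMIs, to the right of which lie 1 IgG and 6 EBA barcodes.

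T cell markers that the rule did not use were present. The 10 T cell markers other than the Cd3 genes were all detected among members of at most 20000 UMIs in both libraries, at 5351 CPM (UMIs of the gene or list scaled to the total of the summed barcodes) in IgG and 4625 CPM in EBA, against 41.7 and 55.8 CPM in the other kept barcodes. Icos had a UMI in 16 of 22 IgG and 79 of 91 EBA members, and a UMI of Trac, Trbc1 or Trbc2, the constant segments of the alpha-beta receptor, was present in 22 of 22 and 90 of 91. Trbc1 and Trbc2 are also read in Trdc-positive cells, so they do not mark the alpha-beta lineage alone. A UMI of Tcrg-C1, Tcrg-C2 or Tcrg-C4, the gamma chain constant segments, was present in 2 of 22 and 9 of 91 members. Of the members, 9 of 91 in EBA and 2 of 22 in IgG carried Tcrg-C or Trdv4 without Foxp3, Cd4, Cd8a or Cd8b1, and whether these are gamma-delta T cells was not tested. Just outside the rule lay 5 IgG barcodes and 1 EBA barcode with a single Trdc UMI, and 39 and 25 barcodes with a single Cd3 UMI. Just inside it lay 5 and 14 members with exactly 2 Cd3 UMIs.

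Transcripts of other cells reached the members unequally in the 2 libraries. Neutrophil markers were found in 1 of 21 IgG members of at most 20000 UMIs (12.7 CPM, against 63.0 CPM in the other kept barcodes) and in 67 of 85 EBA members (3743 CPM, against 9680 CPM). Of the 1898 neutrophil marker UMIs of EBA members 1708 were in 2 barcodes, and the median member stood at 271 CPM. Red cell markers were found in 8 of 21 and 79 of 85 members, at 115 and 9328 CPM. In EBA 4475 of the 4730 red cell marker UMIs were in 2 barcodes, and the median member stood at 514 CPM. Keratinocyte markers stood at 1236 and 895 CPM, against 20932 and 20784 CPM in the other barcodes. B cell markers were at 0 in IgG members and at 112 CPM in EBA members, in 20 of 85 barcodes and from 2 of the 5 markers. Langerhans or dendritic cell markers stood at 955 and 270 CPM, against 1038 and 1495 CPM in the other barcodes. In IgG 55 of their 75 UMIs were in 1 barcode, which also held 10 macrophage or monocyte marker UMIs. Macrophage or monocyte markers stood at 127 and 392 CPM, against 253 and 1396 CPM, and in EBA 169 of their 199 UMIs were in 1 barcode. The part of these transcripts in the differences given below was not tested.

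Trdc-negative T cells were a larger share of EBA skin than of IgG skin. They were 22 of 5334 kept barcodes in IgG (0.412%, exact 95% interval 0.259 to 0.624%) and 91 of 4281 in EBA (2.13%, 1.71 to 2.60%). Among leukocytes, taken as kept barcodes with a UMI of the pan-leukocyte gene Ptprc under the keratin limit, the order was the other way and the intervals overlapped. There the members were 20 of 321 (6.23%, 3.85 to 9.46%) in IgG and 87 of 1668 (5.22%, 4.2 to 6.39%) in EBA. Such leukocytes were 6.02% of kept barcodes in IgG skin and 39.0% in EBA skin.

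Within the T cells of skin the balance differed. Members were 22 of 143 barcodes with 2 or more Cd3 UMIs in IgG (15.4%, 9.90 to 22.4%) and 91 of 168 in EBA (54.2%, 46.3 to 61.9%). Trdc-positive T cells, chosen by the same rule with 1 or more Trdc UMIs, were 121 barcodes in IgG (2.27% of kept barcodes) and 77 in EBA (1.80%). The same rule in blood gave 96.1% Trdc-negative T cells in IgG and 95.2% in EBA. Without barcodes over 20000 UMIs the skin shares were 15.2% (9.67 to 22.3%) and 54.5% (46.3 to 62.5%). More cells of one kind and fewer of the other cannot be told apart in such shares.

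Foxp3, the defining transcription factor of regulatory T cells, was found in a large minority of members of both libraries. A Foxp3 UMI was present in 8 of 22 IgG members (36.4%) and 41 of 91 EBA members (45.1%). After each barcode was thinned at random to 1500 UMIs, which left out 3 shallow EBA members, the shares were 6 of 22 (27.3%, 10.7 to 50.2%) and 23 of 88 (26.1%, 17.3 to 36.6%). Over all possible draws of the thinning the expected shares were 29.3 and 28.7%. The shares of both libraries lay within each other's intervals, which are wide. It was seen in 0 of 121 IgG and 0 of 77 EBA Trdc-positive T cells, where the limit of 3 counts allows shares with a UMI of up to 2.48 and 3.90%, and in 0 of 1364 and 1 of 267 keratin-rich barcodes without Cd3 UMIs, although these had median depths of 9586 and 35576 UMIs. In blood, 17 of 1261 IgG and 13 of 735 EBA T cells carried a Foxp3 UMI.

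Il2ra, which binds interleukin-2 with high affinity, was found in 11 of 22 IgG members (50.0%) and 58 of 91 EBA members (63.7%). At 1500 UMIs it was found in 8 of 22 (36.4%, 17.2 to 59.3%) and 37 of 88 (42.0%, 31.6 to 53.0%), with expected shares of 32 and 43.5%. The intervals overlapped widely. In the keratin-rich barcodes it was found in 4 of 1364 and 6 of 267 before thinning and in none after it. Trdc-positive T cells carried Il2ra in 7.83% of IgG and 24% of EBA barcodes at 1500 UMIs, and blood T cells in under 1% of either library.

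Cd4, the coreceptor of helper and most regulatory T cells, was found in 8 of 22 IgG members (36.4%) and 43 of 91 EBA members (47.3%). It was poorly captured. IgG members held at most 2 Cd4 UMIs each and EBA members at most 7. At 1500 UMIs the shares were 3 of 22 (13.6%, 2.91 to 34.9%) and 22 of 88 (25.0%, 16.4 to 35.4%), whereas the shares expected over all draws were 19.8 and 20.7%, a gap smaller than that of the single draw. In keratin-rich barcodes Cd4 was found in 5 of 1364 and 1 of 267. A barcode without a Cd4 UMI can therefore not be read as a cell without CD4.

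Members were unlike blood T cells in their coreceptors. A UMI of Cd8a or Cd8b1, which encode the coreceptor of cytotoxic T cells, was present in 1 of 22 IgG and 7 of 91 EBA members, but in 52.2 and 52.1% of blood T cells. At 1500 UMIs Icos was found in 63.6% of IgG and 63.6% of EBA members, against 7.83 and 30.7% of Trdc-positive skin T cells and 4.85 and 6.62% of blood T cells.

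**Figure D2:**
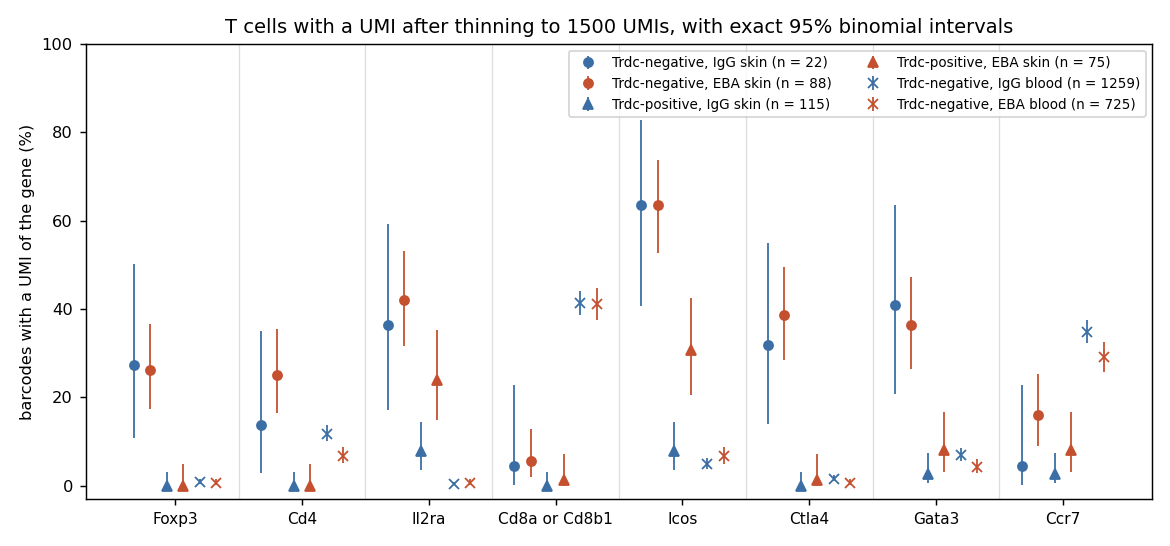
Share of barcodes (vertical, percent) with a UMI of each gene or set after thinning to 1500 UMIs, for members, Trdc-positive skin T cells and Trdc-negative blood T cells of the IgG and EBA libraries, with exact 95% binomial intervals. Foxp3 was found in 27.3 and 26.1% of IgG and EBA members and in no Trdc-positive barcode, and Cd8a or Cd8b1 mainly in blood.

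The 3 status genes went together in part. In EBA skin 36 of the 41 Foxp3-positive members also carried Il2ra, and 22 members carried Il2ra without Foxp3. In IgG skin these were 6 of 8 and 5 members. Cd4 was found in 21 of the 41 Foxp3-positive EBA members and in 22 of the others. Foxp3, Cd4 and Il2ra were all present in 19 of 91 EBA and 4 of 22 IgG members, and none of them in 16 and 8. Cd8a or Cd8b1 was found without Foxp3 in 3 EBA members and 1 IgG member, and with Foxp3 in 4 EBA members.

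Members with a Foxp3 UMI were compared with those without one in each library. Foxp3 chose the groups and is no result. As for Cd4, a barcode without a Foxp3 UMI cannot be read as a cell without Foxp3. Among barcodes of at most 20000 UMIs the comparison set 36 against 49 EBA barcodes, with median depths of 4271 and 5288 UMIs, and 8 against 13 IgG barcodes, with 3448.5 and 3816. Genes counted as measured when the pair of sums held at least 10 UMIs and the higher sum at least 10 CPM. They were called higher at a CPM ratio of at least 2, and lower at a ratio of at most 0.5, where the exact 95% counting interval of the ratio left out 1. In EBA 6.79% of 5697 measured genes were higher in Foxp3-positive members and 4.67% lower, and in IgG 6.78 and 7.36% of 1210. With all members the shares were 11.0 and 5.30% of 7355 genes in EBA, and 12.8 and 8.42% of 2304 genes in IgG.

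Most measured genes of the regulatory T cell list were higher in Foxp3-positive members. In EBA 17 of the 24 measured members of the list were higher and 0 lower, with a median log2 ratio of 1.72, against 0.12 over all measured genes. In IgG 10 of 14 were higher and 1, Areg, lower, with a median of 2.35 against 0.01. Il2ra stood at 991 CPM in Foxp3-positive and 251 CPM in Foxp3-negative EBA members (ratio 3.95, 3.02 to 5.21), and at 752 and 138 CPM in IgG (5.43, 2.22 to 15.1). Ctla4, which restrains costimulation, stood at 980 and 254 CPM in EBA (3.86, 2.96 to 5.08), and in IgG its 27 UMIs in Foxp3-positive members faced 1 UMI. Ikzf2, the transcription factor Helios, stood at 2619 and 559 CPM in EBA (4.68, 3.94 to 5.6) and at 2184 and 455 CPM in IgG (4.80, 2.93 to 8.13). Tnfrsf4, the costimulatory receptor OX40, had ratios of 3.95 (3.13 to 5.01) in EBA and 13.9 (4.19 to 72.2) in IgG. Icos had ratios of 2.13 (1.83 to 2.49) and 2.30 (1.57 to 3.37). These genes thus stood higher beside Foxp3 in both libraries.

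Il1rl1, Klrg1 and Il10 were also past the limit in EBA. Il1rl1, the receptor of interleukin-33, stood at 1006 CPM in Foxp3-positive and 119 CPM in Foxp3-negative EBA members (8.46, 5.93 to 12.4). In IgG all 32 Il1rl1 UMIs, from 6 barcodes, were in Foxp3-positive members, at least 19.3-fold higher against a floor of 3 counts in the other sum. Klrg1, an inhibitory receptor, had 74 UMIs in 19 Foxp3-positive and 5 UMIs in 4 Foxp3-negative EBA barcodes (23.5, 9.64 to 74.6). Il10, an inhibitory cytokine, had 39 UMIs in 7 Foxp3-positive barcodes of EBA skin and 0 in the Foxp3-negative ones (at least 20.7-fold higher). In IgG it had 2 UMIs in 1 barcode, also Foxp3-positive.

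Further genes past the limit in EBA were Gzmb, the protease granzyme B, with 317 UMIs in 24 of 36 Foxp3-positive and 25 UMIs in 10 of 49 Foxp3-negative barcodes (20.1, 13.4 to 31.6). In IgG, Gzmb stood at 2936 and 297 CPM (9.90, 5.67 to 18.5), but 79 of its 82 UMIs in Foxp3-positive members were in 2 barcodes and all 15 in Foxp3-negative members in 1. Ccr2, a chemokine receptor that leads cells into inflamed tissue, had ratios of 6.75 (4.92 to 9.41) in EBA and 5.69 (2.35 to 15.8) in IgG. Neb, which encodes the muscle protein nebulin, had 38 UMIs in 18 Foxp3-positive and 5 UMIs in 3 Foxp3-negative EBA barcodes (12.1, 4.75 to 39.3). The proto-oncogene Myc had 20 UMIs in 6 barcodes and 2 UMIs in 2 (15.9, 3.86 to 140). Cxcl10, an interferon-induced chemokine, had 32 UMIs in 3 barcodes and 1 UMI in 1, so it rests on very few cells. Not past the limit in EBA were Cd4 (1.09, 0.697 to 1.68), Trac (1.14, 0.859 to 1.51), Rora (1.12, 0.959 to 1.30) and Areg (1.64, 0.977 to 2.75).

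Effector genes stood higher in Foxp3-negative EBA members. Of the type 17 list 6 of 11 measured genes were lower in Foxp3-positive members and 1 higher (median −1.63), and of the type 1 and cytotoxic list 8 of 14 were lower and 2 higher (median −1.27). Il17f had 0 UMIs in Foxp3-positive and 55 UMIs in 8 Foxp3-negative barcodes, so it was at least 11.5-fold lower beside Foxp3. Ccl5, a chemokine of effector T cells, stood at 40.8 and 774 CPM (0.0527, 0.0225 to 0.106). Tnfsf8, the ligand of CD30, had 1 UMI against 87 UMIs (0.0183, 0.000457 to 0.104), and Tcf7, a transcription factor of naive and memory T cells, 3 UMIs against 60 (0.0794, 0.0159 to 0.244). In IgG few genes of these lists were measured. Of the type 17 list 1 of 4 was higher beside Foxp3 and 0 lower (median 0.39). The EBA median covers 11 measured genes, so the 2 medians rest on different genes. Of the type 1 and cytotoxic list 3 of 4 were lower and 1 higher (median −1.55). The chemokine list had no measured gene in IgG, and Tnfsf8, Il17a and Il17f had no UMI in IgG members.

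Cell cycle and immediate early genes also differed between these groups. Of the cell cycle list 6 of 16 genes were higher in Foxp3-positive EBA members and 0 lower (median 0.99), led by Mki67, a nuclear protein of dividing cells, with 46 UMIs in 5 Foxp3-positive barcodes and 26 UMIs in 8 others (2.81, 1.7 to 4.74). Foxp3-positive barcodes of 14461, 14330 and 13743 UMIs held 14, 8 and 14 of these 46. As a count of barcodes, Mki67 was found in 5 of 36 Foxp3-positive and 8 of 49 Foxp3-negative members, so more barcodes with Mki67 beside Foxp3 were not seen. Of the immediate early and heat shock list 7 of 20 genes were lower and 1 higher in EBA, and 10 of 18 lower and 0 higher in IgG. The 1 higher gene in EBA was Fos (3.32, 1.96 to 5.80), but 28 of its 68 EBA UMIs were in 1 Foxp3-positive barcode. The 49 Fos UMIs of IgG were all in Foxp3-negative members.

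**Figure D3:**
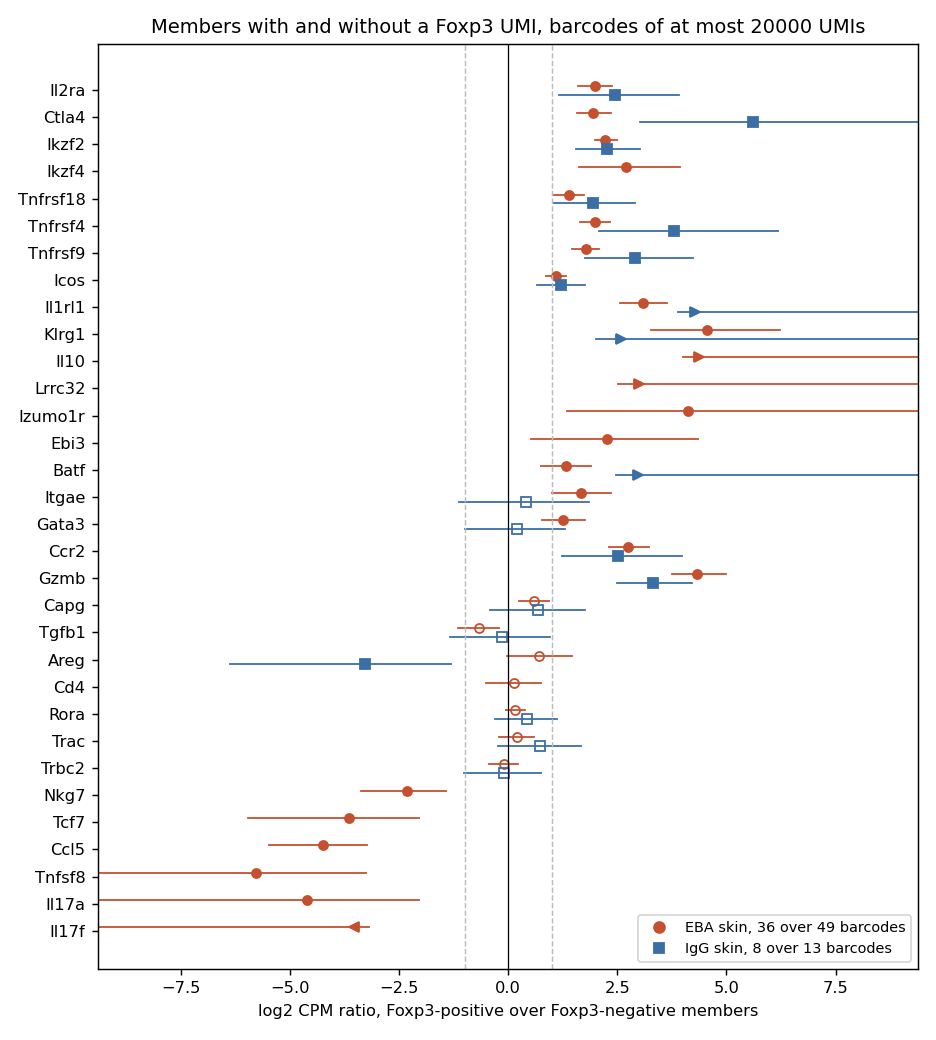
Log2 CPM ratio of Foxp3-positive over Foxp3-negative members (horizontal) for 32 genes, in EBA skin (circles, 36 against 49 barcodes) and IgG skin (squares, 8 against 13 barcodes), members of at most 20000 UMIs. Lines are 95% counting intervals, filled symbols are past the limit of 2-fold (dashed lines), triangles are bounds where 1 sum held no UMI, and lines that reach the frame go on beyond it. Il2ra, Ctla4, Ikzf2 and Tnfrsf4 lie to the right in both libraries.

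The EBA and IgG members were next compared over the sums of each library. Over all members 7902 genes were measured, of which 613 (7.76%) were higher and 492 (6.23%) lower in EBA, with a median log2 ratio of 0.28. Relative to that median 343 were higher and 652 lower. Among the 12 ranked highest was Eln, the elastic fibre protein, with 713 UMIs from 6 EBA barcodes and 0 in IgG, beside Bgn, Col8a1, Ctgf, Cxcl12, Fst and Sox9, and among the 12 lowest were genes of the cornified epidermis such as Lor, with 60 UMIs in EBA against 769 UMIs in IgG, Slurp1, Flg2, Kprp and Crct1. Without barcodes over 20000 UMIs 6118 genes were measured, of which 155 (2.53%) were higher and 188 (3.07%) lower, with a median of −0.01. Of the status genes, Foxp3 had 292 CPM in EBA members and 395 CPM in IgG members (0.739, 0.499 to 1.13) and Icos had 1359 and 1503 CPM (0.904, 0.743 to 1.11). Il2ra had 536 and 357 CPM (ratio 1.5, 1.02 to 2.31) and Cd4 had 179 and 115 CPM (1.57, 0.789 to 3.53). None of these 4 was past the limit. Over all members Il2ra (2.35) and Cd4 (2.22) were past it, but with a mitochondrial limit of 5% in place of 10% the log2 ratio of Il2ra was −0.13. That limit also left out the IgG barcode of 86362 UMIs, which held 52.4% of IgG member UMIs and 0 Il2ra UMIs.

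Among members of at most 20000 UMIs, Ccl5 ranked first of the 12 genes ranked highest in EBA, which also held Tnfsf8, Penk and Il17f. Ccl5 had 249 UMIs in 14 EBA barcodes, 3 of which held 58.6% of them, and 2 UMIs in 1 IgG barcode (19.3, 5.28 to 160). At 1500 UMIs it was found in 12 of 82 EBA and 1 of 21 IgG members. Tnfsf8 had 88 UMIs in 17 EBA barcodes and none in IgG (at least 4.54-fold), and Penk, which encodes the opioid precursor proenkephalin, 95 UMIs in 9 barcodes and none in IgG (at least 4.90-fold). Il17f had 55 UMIs in 8 EBA barcodes and none in IgG (at least 2.84-fold). By the limit of 3 counts, 0 of 22 IgG members allows a share of barcodes with a UMI of up to 13.6%. Cxcl2, a neutrophil attractant, had 471 UMIs in EBA against 1 in IgG, but 358 of them were in 1 barcode. It was found at 1500 UMIs in 18 of 82 EBA members, beside 7.0% of keratin-rich barcodes of the same library.

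Other genes were spread over more barcodes. Zeb2, a transcription factor of effector T cells and of myeloid cells, had 130 UMIs in 34 of 85 EBA members and 2 UMIs in 2 IgG members (10.1, 2.73 to 84). At 1500 UMIs it was found in 17 of 82 and 0 of 21, and in 1 of 257 keratin-rich EBA barcodes. Ctsz, a lysosomal protease, had 64 UMIs in 34 EBA barcodes and none in IgG (at least 3.30-fold), and Serpinb6b, a serine protease inhibitor, 53 UMIs in 22 barcodes and none (at least 2.73-fold). Ifitm1, Slc7a11 and Clec4e were also among the 12 ranked highest, but 57 of 88 Ifitm1 and 56 of 79 Slc7a11 UMIs were in 1 barcode each, and all 66 Clec4e UMIs in 3.

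Of the cell cycle list 5 of 16 measured genes were higher in EBA members, 0 were lower and 11 were not past the limit, with a median of 1.07, against −0.01 over all genes. Mki67 had 72 UMIs in 13 of 85 EBA barcodes and none in IgG (at least 3.72-fold). Of its EBA UMIs 56.9% were in 3 barcodes of 13743 to 17684 UMIs, whereas the deepest IgG barcode of this sum had 5504 UMIs. The part of depth in these ratios was not tested. Top2a, the topoisomerase of replicating DNA, had 64 UMIs in 14 barcodes against 2 in 2 (4.95, 1.32 to 41.8), and Stmn1, a microtubule regulator, 96 UMIs in 19 against 1 in 1 (14.9, 2.60 to 593). Hmgb2, a chromatin protein, stood at 860 and 280 CPM (3.07, 2.00 to 4.95) and was found at 1500 UMIs in 47 of 82 and 7 of 21 members. As a count of barcodes at 1500 UMIs, Mki67 or Top2a was found in 9 of 88 EBA members (10.2%) and 1 of 22 IgG members (4.55%). Keratin-rich barcodes carried them in 16 and 10.6%.

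Other lists in the same direction were smaller. Of the glycolysis and hypoxia list 3 of 16 genes were higher and 0 lower (median 0.78). Hif1a, the oxygen-regulated transcription factor, stood at 532 and 153 CPM (3.48, 1.96 to 6.83) and was found at 1500 UMIs in 41 of 82 and 4 of 21 members, beside 21.4 and 13.5% of keratin-rich barcodes. Pgk1 (2.59, 1.37 to 5.49) and Pgam1 (2.13, 1.04 to 5.05) are enzymes of glycolysis. Of the interleukin-2 family list 2 of 14 were higher and 0 lower (median 0.31). These were the signal transducers Stat5a, with 112 UMIs in 47 EBA and 7 UMIs in 7 IgG barcodes (2.48, 1.16 to 6.30), and Stat5b, with 80 in 46 and 5 in 5 (2.48, 1.02 to 7.84). Of the naive and circulating list Ccr7, the lymph node chemokine receptor, had 88 UMIs in 25 EBA barcodes and 3 UMIs in 3 IgG barcodes (4.54, 1.5 to 22.4), and Satb1, a chromatin organiser of T cells, stood at 448 and 191 CPM (2.34, 1.39 to 4.26), with 0 of 11 genes of that list lower (median 0.51). Of the regulatory T cell list Tnfrsf4 (2.14, 1.43 to 3.32) and Penk were higher and Areg lower, of 25 measured, with a median of 0.18.

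Among the genes lower in EBA members were Lgals3 and regulators of G protein signalling. Lgals3, the lectin galectin-3, stood at 444 CPM in EBA (55 of 85 barcodes) and 2077 CPM in IgG (19 of 21), a ratio of 0.214 (0.174 to 0.263). At 1500 UMIs it was found in 28 of 82 and 17 of 21 members, beside 87.5 and 92.7% of keratin-rich barcodes. Of the 163 Lgals3 UMIs of IgG, 57 were in 1 barcode and 66.9% in 3. Rgs1 and Rgs2, regulators of G protein signalling that are high in resident T cells, had ratios of 0.477 (0.384 to 0.597) and 0.375 (0.302 to 0.467). They were found at 1500 UMIs in 30 and 28 of 82 EBA members and in 14 and 13 of 21 IgG members. The keratin-rich barcodes of either library carried them in at most 1.95%. Of the IgG UMIs, 48 of 110 for Rgs1 and 58 of 121 for Rgs2 were in 1 barcode for each gene, so the sizes of these ratios rest in part on single barcodes. Txnip, a thioredoxin inhibitor, was found in 9 of 82 and 9 of 21 members, with a ratio of 0.173 (0.0975 to 0.310). Of the immediate early and heat shock list 4 of 20 genes were lower and 0 higher (median −0.63). Among them Fos had 68 UMIs in 22 EBA and 49 UMIs in 7 IgG barcodes (0.215, 0.147 to 0.317), and Hspa1a, a stress chaperone, had a ratio of 0.478 (0.401 to 0.572), with 119 of its 170 IgG UMIs in 1 barcode. Of the 49 Fos UMIs of IgG, 81.6% were in 3 barcodes.

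Some low ratios rest on single IgG barcodes. All 17 UMIs of H2-Aa and of H2-Eb1 and all 9 of H2-Ab1, which encode major histocompatibility class II chains, came from 1 IgG barcode, as did 46 of the 63 UMIs of Cd74, the class II invariant chain. These are the 4 genes of the antigen presentation list that were lower, of 12 measured. The barcode that held the class II UMIs had 2 Cd3 and 2 Foxp3 UMIs and was 1 of the 8 Foxp3-positive IgG members. The 20 Flrt3 UMIs of IgG, an adhesion protein, were in 1 barcode, and 33 of the 37 Areg UMIs, a growth factor for epithelium, in another. Areg was found in 21 of 85 EBA and 5 of 21 IgG members. Of the lists for NF-kB targets (14 genes) and interferon response (13 genes) none was past the limit in either direction, with medians of 0.13 and −0.21.

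**Figure D4:**
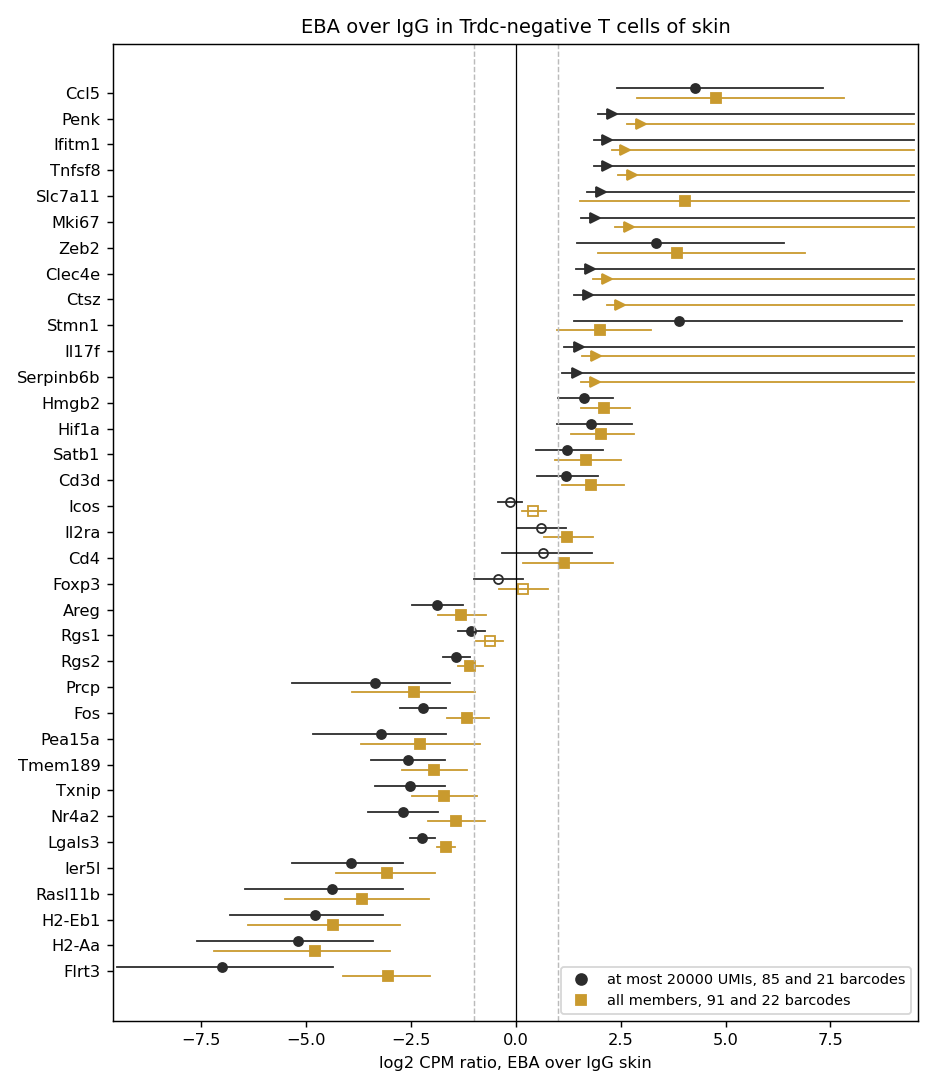
Log2 CPM ratio of EBA over IgG members (horizontal) for the named genes, with 95% counting intervals, over members of at most 20000 UMIs (black, 85 and 21 barcodes) and over all members (gold, 91 and 22 barcodes). Filled symbols are past the limit of 2-fold (dashed lines) and triangles are bounds against a sum with no UMI. Foxp3 and Icos lie near 0, whereas Ccl5 lies far to the right and Lgals3 to the left.

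Interleukin-17, the cytokine of type 17 cells, was rare among members. Il17a or Il17f had a UMI in 11 of 91 EBA members and 0 of 22 IgG members. The 40 UMIs of Il17a came from 7 barcodes and the 55 UMIs of Il17f from 8, 3 of which held 90.9% of them. Of the 11 barcodes, 6 held a single Il17 UMI. Among keratin-rich barcodes without Cd3 UMIs 0 of 1364 in IgG and 1 of 267 in EBA had such a UMI. Of the 11 barcodes, 8 carried Cd4, 8 carried Trac, 7 carried Il2ra, 1 carried Foxp3 and 0 carried Cd8a or Cd8b1. Tcrg-C or Trdv4, marks of gamma-delta T cells, were found in 2 of them, without Cd4. One of these held 26 Il17a and 16 Il17f UMIs, so 43 of the 95 Il17 UMIs were in barcodes with such marks and 51 in the 8 with Cd4. Of the 51, 40 were in 2 barcodes, and 27 of these in 1 barcode that had 2 Cd3 UMIs. Another of the 8 with Cd4 held 1 Il17 UMI and 2 Cd3 UMIs beside 169 UMIs of macrophage or monocyte markers. The 1 barcode with neither Cd4 nor such marks held 1 Il17 UMI beside 1034 UMIs of neutrophil markers. Tmem176a or Tmem176b, membrane proteins found in type 17 cells, were present in 8 of the 11 and in 17 of the 80 other EBA members, and the chemokine receptor Ccr6 in 5 and 15. In Trdc-positive T cells of EBA skin 14 of 77 barcodes had such a UMI, with 339 UMIs of Il17a and 600 of Il17f. Of these 14 barcodes 12 carried Tcrg-C or Trdv4 and 0 carried Cd4. The IgG library had 4 of 121.

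Members were then set against the Trdc-positive T cells of their own library, with Trdc left out because it chose the groups. Over barcodes of at most 20000 UMIs 7.89% of 7491 genes were higher and 11.9% lower in EBA members, and 6.69 and 8.10% of 5692 in IgG members. With all members the shares were 10.7 and 11.2% in EBA and 6.41 and 9.98% in IgG. Of the regulatory T cell list 17 of 25 genes were higher and 1 lower in EBA (median 2.05), and 10 of 16 higher and 1 lower in IgG (median 1.93), against medians over all genes of 0.02 and 0.05. The lower gene was Areg in both, at 0.101 (0.0770 to 0.131) in EBA and 0.291 (0.203 to 0.405) in IgG. Cd28, the main costimulatory receptor, stood at 489 and 17.8 CPM in EBA (27.5, 13.2 to 69.2) and at 433 and 4.23 CPM in IgG, where Trdc-positive cells held 2 UMIs (103, 26.3 to 881). Ctla4 stood at 534 and 12.7 CPM in EBA (42.1, 17.8 to 131) and was at least 56.3-fold higher in IgG. Il1rl1 was at least 60.6-fold higher in EBA and 64.3-fold in IgG. Trac had ratios of 4.87 (3.38 to 7.21) and 13.3 (7.58 to 24.3), whereas Trbc1 had 1.14 (0.959 to 1.37) and 1.05 (0.766 to 1.41).

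Genes lower in members than in Trdc-positive cells included genes of a chemokine and of cytokines. Xcl1, a chemokine for dendritic cells, had 8 UMIs in EBA members against 179 (0.0347, 0.0148 to 0.0699), and none in IgG members against 501 (at least 27.7-fold lower). Rgs1 had ratios of 0.168 (0.149 to 0.189) in EBA and 0.214 (0.176 to 0.259) in IgG. In EBA, Il17a stood at 78.9 CPM in members and 663 in Trdc-positive cells (0.119, 0.0831 to 0.167), and Il17f at 108 and 952 (0.114, 0.0842 to 0.151). Of the antigen presentation list 11 of 11 genes were higher in IgG members (median 2.59), and in EBA 5 of 12 were higher and 4 lower. The class II genes and Cd74 among them rest on few barcodes, since Cd74 came from 10 of the 71 Trdc-positive EBA barcodes and H2-Aa from 2. In IgG members all UMIs of H2-Aa, H2-Ab1 and H2-Eb1 and 46 of the 63 of Cd74 were in 1 barcode.

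Against the Trdc-negative T cells of blood the members differed in many genes. Over barcodes of at most 20000 UMIs 34.1% of 7796 genes were higher in EBA members and 5.89% lower, and 13.3 and 2.43% of 8349 in IgG members. With all barcodes these were 35.3 and 8.84% in EBA, and 17.5 and 8.92% in IgG. The median log2 ratios over all genes were 0.63 and 0.60, to be set beside every value of this comparison. Of the regulatory T cell list 24 of 25 genes were higher in EBA (median 4.68) and 17 of 21 in IgG (median 3.78), and of the type 17 list 12 of 12 (4.02) and 8 of 8 (4.44). Foxp3 stood at 292 and 3.64 CPM in EBA skin and blood (80.2, 49 to 139) and at 395 and 4.73 CPM in IgG (83.5, 49.9 to 139). Rora, a nuclear receptor of tissue T cells, had ratios of 125 (95.2 to 168) and 57.5 (42.5 to 77.5), and Cxcr6, a chemokine receptor of resident T cells, 18 (14.7 to 22.3) and 18.9 (13.7 to 25.7).

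Genes of circulating T cells were lower in members. Of the naive and circulating list 7 of 12 were lower and 0 higher in EBA (median −1.24), and 10 of 12 lower in IgG (median −2.5). Klf2, a transcription factor that keeps T cells in circulation, had ratios of 0.144 (0.110 to 0.184) and 0.268 (0.161 to 0.419). Ccr7 was not past the limit in EBA (0.736, 0.586 to 0.915) and was lower in IgG, with 3 UMIs in members (0.125, 0.0258 to 0.366). The cell cycle list had 15 of 16 genes higher in EBA members (median 2.16) and 0 of 10 in IgG members (median −0.01), and the interferon response list had 7 of 18 lower in EBA (median −0.87) and 2 of 17 lower in IgG (median −0.22).

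The EBA over IgG ratios of the other T cells are given beside those of the members. In Trdc-positive T cells of skin 7.68% of 7150 genes were higher in EBA and 5.80% lower, with a median log2 ratio of 0.12, and in blood T cells 1.23 and 7.27%, with a median of −0.31. Icos, with a ratio of 0.904 in members, had 3.74 (2.79 to 5.08) in Trdc-positive cells and 1.24 (1.04 to 1.47) in blood. Hif1a had 2.91 (2.00 to 4.32) in Trdc-positive cells and 0.76 (0.625 to 0.921) in blood. Ccl5 had 3.08 (2.97 to 3.19) in blood T cells, where EBA held 1831 CPM and IgG 595 CPM. The cell cycle list had 5 of 15 genes higher in Trdc-positive cells (median 1.07) and 0 of 9 in blood (median −0.30). The difference between these ratios was not tested.

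**Figure D5:**
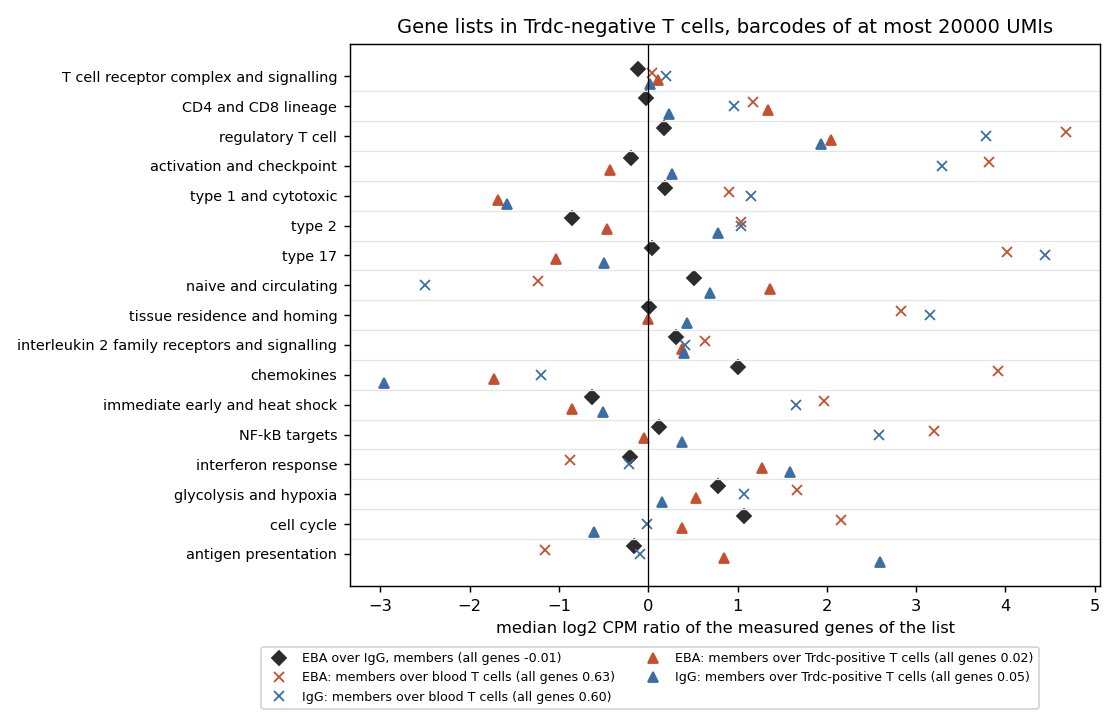
Median log2 CPM ratio of the measured genes of 17 lists (horizontal) among barcodes of at most 20000 UMIs, for EBA over IgG members (black diamonds) and for members over Trdc-positive skin T cells (triangles) or blood T cells (crosses) of EBA (orange) and IgG (blue). The regulatory T cell list lies at 0.18 for EBA over IgG and between 1.93 and 4.68 in the other comparisons.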

How the data were processed

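The authors deposited UMI counts per gene and barcode for 4 libraries, made with Cell Ranger 3.0.0 on mm10, with Seurat 3.0.0 and 3.1.0 also named, per the submitters' processing notes. All values were whole numbers. No cell annotation was used. Members were chosen by the limits given above, with no clustering, and the members and all gene lists were chosen with earlier results of these data known. Barcodes of libraries were grouped by the library's label alone, and no barcode was removed as a doublet. As an alternative the highest Scrublet scores (scanpy 1.11.5), 0.8% for each 1000 barcodes, were removed, 1 IgG and 4 EBA members among them.

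For each class the raw counts of its barcodes were added up in Python 3.11.15 with numpy 2.4.6, scipy 1.17.1 and pandas 2.3.3, scaled to CPM, and drawn with matplotlib 3.10.9. Ratios carry exact conditional 95% intervals and shares exact Clopper-Pearson 95% intervals. Where a share is 0, the limit printed is that of 3 counts, not the upper end of the interval. All cover counting error only. A sum without UMIs was set to a floor of 3 counts over the sum, in list medians too. Shares are also given after each barcode was thinned once to 1500 UMIs, with the share expected over all draws added after the data were seen. The code was tested on simulated counts.

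Named genes were the 12 highest and 12 lowest in EBA, and the 8 highest beside Foxp3 in EBA skin, by the interval's bound nearest 1, among genes past the limit with 100 or more CPM. The ranking skipped genes of antigen receptors, haemoglobins, mitochondria and ribosomes, marker genes, gene models, and genes under 0.5 times their CPM in the other kept barcodes. The ranking was repeated at the depth limit. Cd3d, Icos, Foxp3, Cd4 and Il2ra, and genes of the 17 lists past the limit, up to 4 in each list, were named too. Other genes were named after their values were seen. There were 277 genes in the lists and 89 in the 13 marker lists. Alternatives were other limits on Cd3 UMIs, genes, mitochondrial and keratin share, other receptor and marker filters, doublet scores, weights, thinning depths, thresholds, denominators and a depth limit. One gene is not reported here.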

Additional observations from a re-analysis of the deposited data

Results flagged for a closer look

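In 9 genes the EBA over IgG ratio went past the limit in opposite directions in the members and in another T cell population, over barcodes of at most 20000 UMIs. The differences between the populations were not tested. Against Trdc-positive T cells of skin, the log2 ratio was −1.84 in members and 6.79 in Trdc-positive cells for Cd74, −5.19 and 6.60 for H2-Aa, −1.95 and 7.60 for H2-Ab1, and −4.78 and 7.21 for H2-Eb1. All H2-Aa, H2-Ab1 and H2-Eb1 UMIs of IgG members were in 1 barcode, as were 46 of their 63 Cd74 UMIs. In Trdc-positive EBA cells the class II genes and Cd74 also rest on few barcodes, as given above. The opposite directions of these 4 genes are therefore values of few barcodes. Hspa1a, a stress chaperone, stood at −1.06 and 2.31, and 1 IgG member held 119 of its 170 UMIs.

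Against T cells of blood, Lgals3 stood at −2.23 in members and 1.02 in blood, and Socs3, an inhibitor of cytokine signalling, at −1.95 and 2.55. The signal transducers Stat5a and Stat5b were both higher in EBA members, at 1.31 each, and lower in EBA blood, at −1.10 and −1.04, where the median over all genes was −0.31. They were found in 47 and 46 of 85 EBA members and in 7 and 5 of 21 IgG members.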

How the results depend on the processing

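No paired analysis was possible because each group was 1 library and no test was made. Of 124 values that the alternatives gave for the comparisons, 97 stayed within the limits used and 27 moved. As a share of leukocytes the members were 6.23% in IgG and 5.22% in EBA. The EBA share of kept barcodes was 1.55% with a mitochondrial limit of 5% and 2.69% among barcodes of at most 20000 UMIs. The Cd4 share of IgG members was 35.3% with 3 or more Cd3 UMIs and 36.4% without thinning. Without thinning the EBA shares were 45.1% for Foxp3, 47.3% for Cd4 and 63.7% for Il2ra. Genes higher in EBA were 613 in the main count. They became 107 with a 5% mitochondrial limit, 180 with other cell type markers at most 1% of UMIs and 155 at most 20000 UMIs. Each of these alternatives left out, among others, the IgG barcode of 86362 UMIs, which held 52.4% of IgG member UMIs. It had 5.70% mitochondrial UMIs and 1.19% other cell type marker UMIs, so these are not separate checks. With every barcode weighted equally, where no interval was required, the genes higher in EBA became 1577. They were 343 relative to the median gene, 1829 with the ratio limit alone and 369 with a ratio of 3. The 1577 is to be set beside the 1829, which also required no interval. Genes lower in EBA were 492. They became 155, 274, 188 and 1120 under the first 4 of these alternatives, in that order, and 285 with 30 UMIs over the sums. The depth limit, chosen after seeing the data, also moved the Foxp3 comparison in IgG from 295 to 82 genes higher and from 194 to 89 lower, and in EBA from 810 to 387 higher. It moved the comparison with Trdc-positive cells in EBA from 916 to 591 higher, and that with blood from 731 to 203 lower in IgG and from 739 to 459 lower in EBA. The cause of these shifts was not tested. The log2 ratio of Il2ra, EBA over IgG, was −0.13 with the mitochondrial limit of 5%. Of 564 values for 52 named genes, 525 kept their call, 37 lost it, 1 gained it and this 1 turned. A named gene not measured in the main count or under an alternative gave no value there and is not counted as lost. With at most 20000 UMIs only 28 of the 52 named genes kept their call and 5 lost it, and the rest gave no value. Of 204 list medians 41 moved.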
